A study of Drosophila melanogaster with 17 samples.

Results

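The genes described here are 9 chitin-modifying enzymes of Drosophila melanogaster, chosen by name as enzymes of trachea, cuticle and gut from the 14095 loci of the deposited count tables. They are the chitin deacetylases serp, verm, Cda4, Cda5 and Cda9 and the chitinases Cht2, Cht4, Cht8 and Cht9. All 9 were found under these symbols, all 9 passed the filter on low counts in fat body, in midgut and in the fit of all libraries, and 8 passed it in whole gut, where Cda4 had no read. Their transcript levels were followed across 17 poly-A RNA libraries in 8 groups.

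Chitin is a polymer of N-acetylglucosamine that stiffens the cuticle, lines the tracheal tubes and forms part of the peritrophic matrix, the sheet that separates food from the gut wall. Chitin synthases make the chains at the cell surface, secreted deacetylases remove acetyl groups and so change how the chains pack, and chitinases cut the chains, after which hexosaminidases release single sugars. In the embryo, Serp (serpentine) and Verm (vermiform) act in the tracheal lumen and limit tube length, and Serp made by fat body can reach that lumen. Insect chitinases with a single catalytic domain and no membrane anchor, the type of Cht4, Cht8 and Cht9, are mostly made in the gut.

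The groups were old fat body (50 days of age, 3 libraries), fat body of flies with RNA interference against Lam (5 days, 2 libraries) and young fat body (5 days, 2 libraries), then old midgut (50 days), Lam-RNAi midgut (5 days) and young midgut (5 days), with 2 libraries each, and old whole gut (40 days) and young whole gut (5 days), also with 2 libraries each. The young and old flies carried no treatment, and the design text calls the young ones wild type. Lam encodes lamin-B, a filament protein under the inner nuclear membrane. The labels give neither the sex of the flies, nor the driver line or tissue of the interference, nor a control line for it, so the Lam-RNAi and young groups may differ in background as well as in Lam. The series text speaks of biological replicates, but nothing says that they came from separate flies. The p-values below set each difference against the spread between these libraries, which all groups of a fit share.

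The libraries held 31637135 to 78289614 counted reads and detected 10383 to 12670 genes, and a gene without a read may hold up to 0.038 to 0.095 CPM, the level of 3 counts (counting error only). Levels are CPM, in which each count is scaled to its library's total. Log2 fold changes come from edgeR's quasi-likelihood test, which also applies TMM factors for the make-up of the library, and need not equal a ratio of CPM levels. A gene was called when its Benjamini-Hochberg adjusted p over all genes tested was below 0.05. Lam itself was at 15.5 and 16.1 CPM in Lam-RNAi fat body, against 38.4 and 39.0 CPM in young fat body. In midgut it was at 32 and 30.4 CPM in Lam-RNAi libraries, against 28.9 and 32.1 CPM in young ones. Lam fell by 1.12 in the fat body comparison (adjusted p = 0.00145) and did not pass in the midgut one (-0.11, interval -0.25 to 0.03, adjusted p = 0.173), so the midgut libraries labelled Lam-RNAi show no detected fall of the targeted transcript. The tissue labels were checked with marker lists: 5 fat body markers summed to 24750 to 90960 CPM in fat body and 555 to 4301 CPM in midgut, and 5 midgut markers summed to 24.5 to 131 CPM in fat body and 15000 to 28780 CPM in midgut. Gene by gene, young fat body against young midgut called 2 of the 5 fat body markers higher, and 3 did not pass. All 5 midgut markers were called lower there.

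The young midgut libraries stood apart from the other midgut libraries in transcripts typical of several other tissues. The part of this in the values given below was not tested. The midgut markers, too, had their highest sums in young midgut. Fat body markers summed to 600 and 632 CPM in old midgut, 555 and 575 CPM in Lam-RNAi midgut and 3415 and 4301 CPM in young midgut. The 3 oenocyte markers, of the wax-making cells that lie beside the fat body, summed to 48.8 and 51.6 CPM in old midgut, 26.8 and 22 CPM in Lam-RNAi midgut and 2230 and 2918 CPM in young midgut. The old fat body libraries were unequal too. Over all genes replicate 1 was the most distant, with a chi-square per gene of 319 against replicate 2 and 108 against replicate 3, while replicates 2 and 3 were the closest pair (78.1), and replicate 1 had the lowest muscle and hemocyte sums. In Cht4 and Cht9 it was replicate 2 that was lowest, as described below.

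The 9 genes fell into 4 patterns by tissue. Serp, verm, Cda4 and Cda5 were each highest in the 3 fat body groups, with young midgut 4th in the order of group means. The fat body libraries also held markers of other tissues, given below, so the cells that made these transcripts are not known. Cht4, Cht8 and Cht9 were each higher in every gut group than in the 3 fat body groups. Cda9 was highest in whole gut and old midgut and close to 0 in young fat body. Cht2 was within a narrow range everywhere, with group means between 5.25 CPM in young whole gut and 15.3 CPM in old whole gut. Young fat body against young midgut called 8 of the 9 genes, 4 higher and 4 lower, where 69.3% of all genes were called (34.3% higher, 35% lower), and Cht2 did not pass (log2 fold change 0.02, 95% interval -0.44 to 0.48). All 8 calls were kept when any of the 17 libraries was left out.

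**Figure D1:**
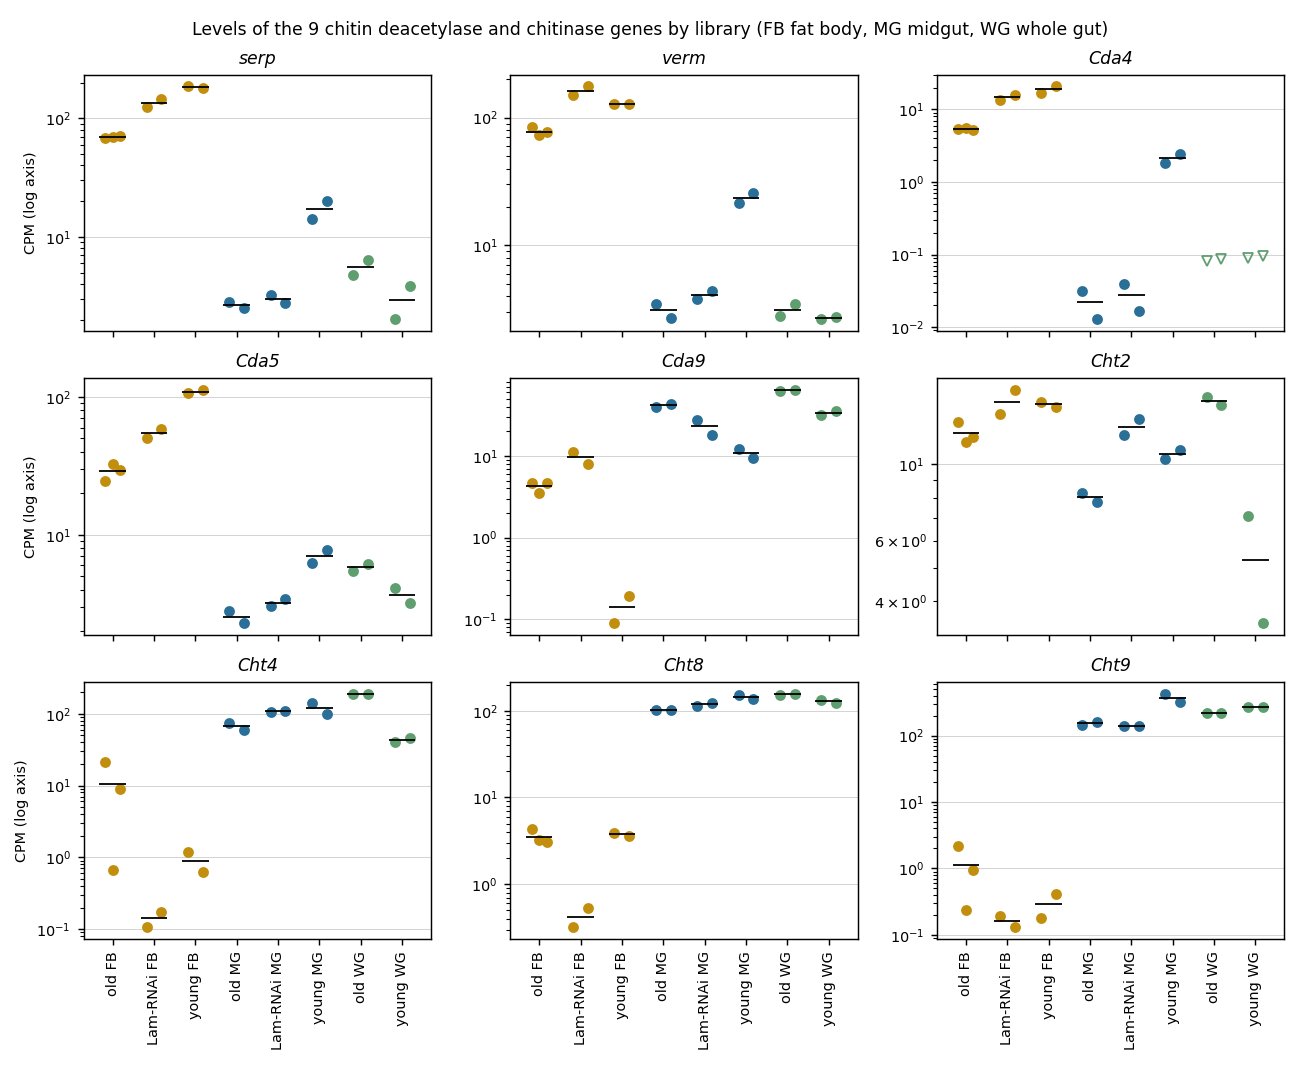
CPM (log axis) of each of the 9 genes in every library, with old, Lam-RNAi and young groups in that order within fat body (FB), midgut (MG) and whole gut (WG). Points are libraries, bars are group means and open triangles mark the level of 3 counts in libraries with no read. Serp, verm, Cda4 and Cda5 lie highest in fat body, Cht4, Cht8 and Cht9 in gut, and Cht2 stays between 3.45 and 16.5 CPM.

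Neighbours in the order of the 8 group means were often not separated by their libraries. Serp averaged 69.5 ± 1.17 CPM in old fat body, 134.9 ± 13.9 CPM in Lam-RNAi fat body and 182.8 ± 5.28 CPM in young fat body (SD, n = 3, 2 and 2), and below young midgut the libraries of Lam-RNAi midgut, young whole gut and old midgut overlapped. Verm averaged 77.8 ± 5.64 CPM in old fat body, 163 ± 19.1 CPM in Lam-RNAi fat body and 128 ± 0.270 CPM in young fat body, with overlap between old whole gut, old midgut and young whole gut at the low end. For Cda4 old and Lam-RNAi midgut overlapped, and for Cda5 young whole gut and Lam-RNAi midgut. For Cda9 young midgut overlapped with Lam-RNAi fat body. The top of the order was not resolved for Cht2, where old whole gut, Lam-RNAi fat body and young fat body overlapped. For Cht4 young and Lam-RNAi midgut overlapped, as did old and young fat body. Cht8 was separated at every step but that between young and old fat body. Cht9 was separated in all gut groups, with young midgut at the top (375 ± 75.0 CPM, n = 2), and not between the 3 fat body groups.

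The lengths of the transcripts differ, so levels of different genes were set side by side only as mean CPM per kilobase of exon, with exon lengths from a release 6 annotation. In young fat body serp held 71.9 and verm 54.2 CPM per kilobase, Cda5 10.1, Cda4 9.80 and Cht2 4.92. In young midgut Cht9 held 323 CPM per kilobase, Cht8 99.8 and Cht4 81.8, against 6.75 for serp and 10 for verm. The long transcript of Cda5 (10793 bases of exon) puts it level with Cda4 per kilobase, although its CPM was several times higher.

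Serp (3L, 19694076 to 19701109, minus strand) and verm (3L, 19683132 to 19688356, minus strand) are neighbours, 5719 bases apart with no other entry between them (the genome build is not given in the sources used here). Serp had 68.8, 68.9 and 70.8 CPM in old fat body, 125 and 145 CPM in Lam-RNAi fat body and 186 and 179 CPM in young fat body. The 3 groups did not overlap, and old fat body was the lowest. Verm had 83.9, 72.8 and 76.7 CPM in old fat body, 149 and 176 CPM in Lam-RNAi fat body and 129 and 128 CPM in young fat body. Here too the groups were apart, but Lam-RNAi fat body was the highest.

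Old against young fat body asks how the tissue differs between 50 and 5 days. It called 6 of the 9 genes, 1 higher and 5 lower, where 38.1% of all genes were called (19.1% higher, 19% lower). Serp fell by 1.48 on the log2 scale (SE 0.08, adjusted p = 8.23e-05) and verm fell by 0.81 (SE 0.09, adjusted p = 0.00101). Cda4 (X, 21985467 to 22034545, minus strand), a deacetylase with a chitin-binding domain, had 5.40, 5.56 and 5.19 CPM in old fat body, against 17.0 and 20.9 CPM in young fat body, and fell by 1.90 (SE 0.13, adjusted p = 0.000164). Cda5 (2L, 25401 to 59242, minus strand), another deacetylase of this kind, had 24.6, 32.5 and 29.4 CPM in old fat body, against 106 and 112 CPM in young fat body, and fell by 2.01 (SE 0.14, adjusted p = 0.000164). In none of the 4 genes did an old library reach a young one, and all 4 calls were kept in each of the 14 alternatives run. In these bulk samples, fewer cells of a type and less RNA per cell cannot be told apart.

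Fat body of Lam-RNAi flies was set against that of young flies of the same age, to ask what goes with targeting Lam. It called 4 of the 9 genes, 2 higher and 2 lower, where 35.7% of all genes were called (18.5% higher, 17.1% lower). The 4 deacetylases split. Cda5 had 50.6 and 58.1 CPM in Lam-RNAi fat body and fell by 0.84 (SE 0.16, adjusted p = 0.00732), while verm rose by 0.52 (SE 0.10, adjusted p = 0.00977). Serp differed by -0.27 (interval -0.49 to -0.04, adjusted p = 0.0659). Cda4, with 13.3 and 16.0 CPM in Lam-RNAi fat body, differed by -0.20 (interval -0.55 to 0.15, adjusted p = 0.323), which leaves out a fall as large as that of old flies. The calls rested on single libraries: verm did not pass without young replicate 1 (adjusted p = 0.0704), young replicate 2 (0.0728) or Lam-RNAi replicate 2 (0.0754), nor scaled by total counts alone (0.34, adjusted p = 0.0509), Cda5 did not pass without young replicate 2 (0.0545) or Lam-RNAi replicate 1 (0.0581), and serp passed without old replicate 1 (0.0312) or old replicate 2 (0.0462), or scaled by total counts alone (-0.44, adjusted p = 0.0121).

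Old against Lam-RNAi fat body sets these 2 groups against each other, and the young libraries enter only its estimate of the spread. It called 8 of the 9 genes, 2 higher and 6 lower, where 14.7% of all genes were called (5.65% higher, 9.09% lower). Serp (-1.22, adjusted p = 0.000796), verm (-1.33, adjusted p = 0.000805), Cda4 (-1.70, adjusted p = 0.00108) and Cda5 (-1.17, adjusted p = 0.00424) were all lower in old fat body. The Cda5 call was lost without Lam-RNAi replicate 2 (-1.08, adjusted p = 0.0573). Of the 9 genes, the number called in this comparison fell to 5 without old replicate 3, 5 without Lam-RNAi replicate 1 and 4 without Lam-RNAi replicate 2. The shares of all genes called in those fits are not given here, so a loss particular to these genes cannot be read from this.

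The 2 neighbours changed places within the fat body. The ratio of serp to verm reads in the same library was 0.819, 0.946 and 0.924 in old fat body, 0.837 and 0.821 with Lam RNAi, and 1.45 and 1.40 in young fat body. Serp outnumbered verm in both young libraries and in none of the 5 others. In midgut the ratio was 0.804 and 0.925 in old, 0.842 and 0.630 in Lam-RNAi and 0.651 and 0.784 in young libraries, which overlap. In whole gut it was 1.71 and 1.86 in old libraries and 0.764 and 1.41 in young ones. A ratio within a library is free of depth and scaling, and its difference between groups was not tested.

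**Figure D2:**
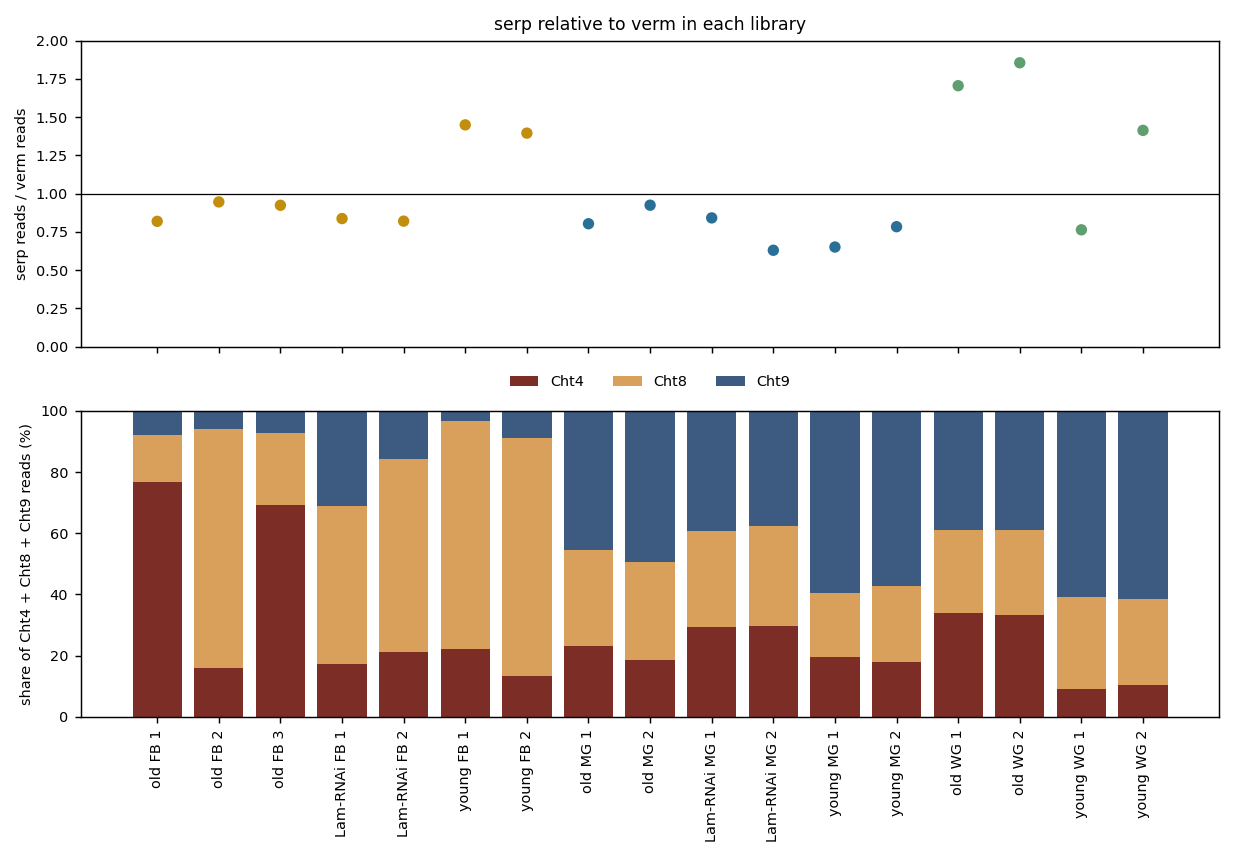
Upper panel, serp reads over verm reads in each of the 17 libraries, with a line at equal reads. Lower panel, Cht4, Cht8 and Cht9 as shares (%) of their summed reads in the same libraries. The ratio is above 1 in young but not in old or Lam-RNAi fat body, and the Cht4 share is larger in old than in young whole gut.

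Markers of other cell types moved in the fat body libraries too. The 6 tracheal markers summed to 166, 198 and 174 CPM in old fat body, 214 and 223 CPM in Lam-RNAi fat body and 323 and 301 CPM in young fat body, and 2 of the 6 fell with age while 0 rose. With Lam RNAi 1 of the 6 rose and 2 fell. The 3 oenocyte markers summed to 23550 to 37390 CPM in old fat body, 34350 and 37670 CPM in Lam-RNAi fat body and 99540 and 100100 CPM in young fat body, and all 3 fell in both comparisons. Of the 4 markers of epidermis and cuticle 3 rose and 1 fell with age, and their sum was 260 to 296 CPM in old, 195 and 220.1 CPM in Lam-RNAi and 111 and 123 CPM in young fat body. Of 5 muscle markers 4 fell with age, while 1 rose and 1 fell with Lam RNAi, and they summed to 1525, 2860 and 2219 CPM in old, 2793 and 2634 CPM in Lam-RNAi and 4959 and 4874 CPM in young fat body. Of 4 hemocyte markers, of the circulating blood cells, 2 fell with age and 2 rose with Lam RNAi, with sums of 1056 to 1848 CPM in old, 1873 and 2105 CPM in Lam-RNAi and 2180 and 2005 CPM in young fat body. The fat body markers themselves went up, 3 of 5 in each comparison and 0 down, with sums of 40690 to 50980 CPM in old, 90960 and 80420 CPM in Lam-RNAi and 25340 and 24750 CPM in young fat body. No tracheal or oenocyte marker was at 0 in any fat body library. The part of these tissues in the deacetylase differences was not tested.

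In midgut the same 4 genes were far lower than in fat body, and lower in old and Lam-RNAi than in young libraries. Serp had 2.81 and 2.52 CPM in old midgut, 3.24 and 2.78 CPM in Lam-RNAi midgut and 14.1 and 20.2 CPM in young midgut. Verm had 3.5 and 2.72 CPM in old midgut, 3.84 and 4.41 CPM in Lam-RNAi midgut and 21.7 and 25.7 CPM in young midgut. Both genes were several times higher in either young library than in any other midgut library. Cda5 had 2.81 and 2.29 CPM in old midgut, 3.04 and 3.41 CPM in Lam-RNAi midgut and 6.26 and 7.73 CPM in young midgut. Cda4 was nearly absent outside the young libraries, with 1 and 1 reads in old midgut and 2 and 1 reads in Lam-RNAi midgut, against 62 and 88 reads in young midgut.

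Old against young midgut called all 9 genes, 1 higher and 8 lower, where 53.7% of all genes were called (25% higher, 28.7% lower). Serp fell by 2.75 (SE 0.15, adjusted p = 2.46e-08), verm by 3.03 (SE 0.12, adjusted p = 7.46e-10) and Cda5 by 1.54 (SE 0.15, adjusted p = 2.09e-06). Lam-RNAi against young midgut called 7, 1 higher and 6 lower, where 55.4% of all genes were called (25.5% higher, 29.9% lower). There serp fell by 2.66 (SE 0.14, adjusted p = 2.98e-08), verm by 2.66 (SE 0.11, adjusted p = 1.55e-09) and Cda5 by 1.26 (SE 0.14, adjusted p = 8.34e-06). Cda4 passed in both (adjusted p = 1.41e-07 and 1.27e-07). Summed over the libraries of a group and scaled to their totals, it was 118-fold lower in old midgut (exact Poisson interval 32 to 980) and 79.0-fold lower in Lam-RNAi midgut (26.5 to 387), intervals that cover counting error only. These calls held in each of the 12 alternatives run. The 2 comparisons share the young midgut libraries, and Lam itself did not pass between Lam-RNAi and young midgut.

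Those young libraries also held more transcripts of several other tissues. All 5 fat body, all 3 oenocyte, all 4 hemocyte and all 5 muscle markers fell in both midgut comparisons, and of 6 tracheal markers 4 fell with age, while 5 fell and 1 rose with Lam RNAi. Of 4 markers of epidermis and cuticle, 4 fell with age and 2 with Lam RNAi. Malpighian tubule (3 markers) had 2 lower with age and 1 with Lam RNAi, and neurons (3 markers) had 1 lower with age and 1 higher with Lam RNAi. Hemocyte markers summed to 77.0 and 71.9 CPM in old midgut, 98.8 and 110 CPM in Lam-RNAi midgut and 293 and 354 CPM in young midgut. Tracheal markers summed to 44.4 and 40.7 CPM in old, 46.4 and 49.1 CPM in Lam-RNAi and 55.8 and 66.7 CPM in young midgut. In young midgut, as a share of the mean in young fat body, serp stood at 9.38%, verm at 18.5%, Cda4 at 11.2% and Cda5 at 6.4%. On the same measure the 5 fat body markers were spread widely, with Rfabg at 8.98%, Fbp1 at 9.85%, Yp1 at 14.6%, Lsp2 at 51.6% and Tsf1 at 86.1%. The 6 tracheal markers stood at 7.25% (uif) to 93.3% (tyn), the 4 hemocyte markers at 13.8% to 22.2%, the 5 muscle markers at 31.5% to 52.5% and the 3 oenocyte markers at 1.68% to 2.66%. The part of these tissues in the midgut differences was not tested. Old against Lam-RNAi midgut uses the young libraries only for the spread, and there serp (-0.09, interval -0.47 to 0.28), Cda5 (-0.28, interval -0.61 to 0.05) and Cda4 (5 reads in all) did not pass, while verm was called lower in old midgut (-0.37, adjusted p = 0.0498).

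**Figure D3:**
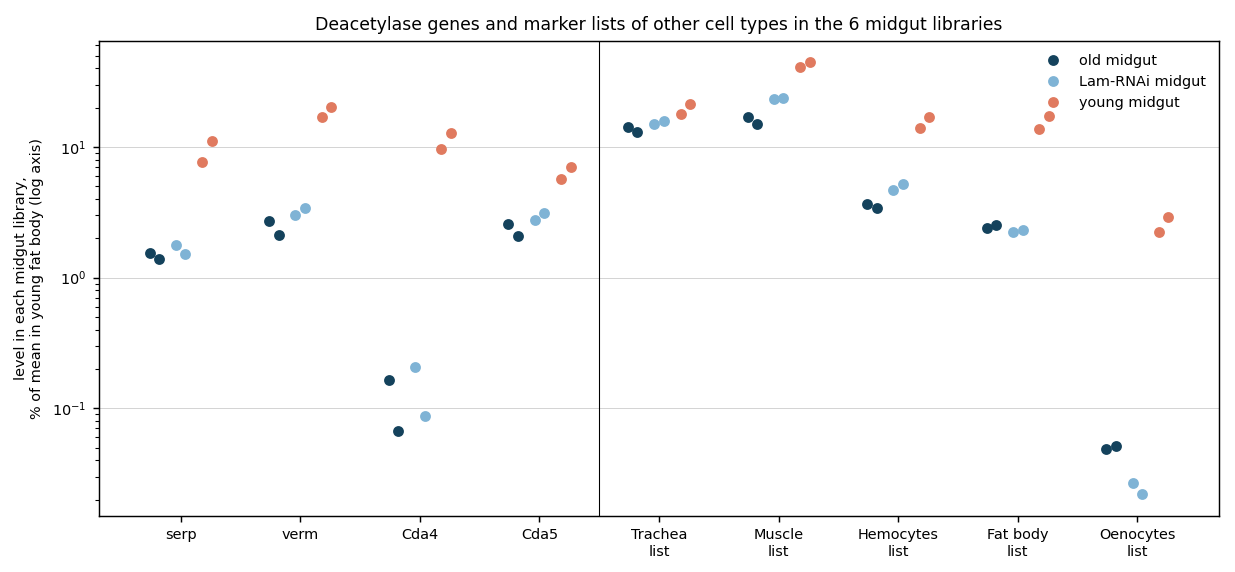
Level of 4 deacetylase genes and summed level of 5 marker lists in each midgut library, as % of the mean in young fat body (log axis), for old, Lam-RNAi and young midgut. Each point is 1 library. The young libraries are highest in every column drawn, for the deacetylases and for these marker lists. Of the lists not drawn, hindgut was lowest in young midgut, at 7.87 and 10.2 CPM. It stood at 17.4 and 17.4 CPM in old and 19.7 and 23.5 CPM in Lam-RNAi midgut. Neuron sums overlapped between the groups, while epidermis, Malpighian tubule and midgut sums were highest in young midgut.

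In whole gut these genes were low at both ages. Serp had 4.76 and 6.43 CPM in old whole gut, against 2.02 and 3.89 CPM in young whole gut, and verm had 2.79 and 3.47 CPM in old whole gut, against 2.64 and 2.75 CPM in young whole gut. Cda5 had 5.47 and 6.14 CPM in old whole gut, against 4.12 and 3.19 CPM in young whole gut. None of the 3 passed between 40 and 5 days (serp 0.43, interval -0.22 to 1.08; verm -0.28, interval -0.88 to 0.31; Cda5 0.17, interval -0.33 to 0.66). The serp value rested on single libraries: it passed without young replicate 2 (0.96, adjusted p = 0.000455), and was 0.03 without young replicate 1, 0.20 without old replicate 2 and 0.64 without old replicate 1. Further, serp (0.93, adjusted p = 0.0164) and Cda5 (0.66, adjusted p = 0.0192) passed when scaled by total counts alone. Of the 6 tracheal markers 2 rose in old whole gut and 0 fell, and their sum was 78.5 and 83.2 CPM in old whole gut, against 46.9 and 45.9 CPM in young whole gut. The part of tracheal tissue in these levels was not tested. Cda4 had no read in any of the 4 libraries, which puts it at least 24.1-fold lower in old whole gut and at least 22.4-fold lower in young whole gut than in young midgut (3 counts per library as the floor).

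Serp, verm and Cda5 were called lower in old than in young midgut and did not pass in whole gut. The difference between the 2 age effects was therefore tested in the fit of all libraries. The midgut effect contains the young midgut libraries, with the marker levels given above. The age effect in whole gut minus that in midgut was 3.19 for serp (adjusted p = 9.74e-06), 2.74 for verm (adjusted p = 3.84e-07) and 1.71 for Cda5 (adjusted p = 0.000216). Of the 8 genes tested 5 differed, 4 higher and 1 lower, where 30% of all genes were called (17.6% higher, 12.5% lower). The old flies were 40 days old in whole gut and 50 days old in midgut, and how the young whole guts and young midguts were dissected is given by no label beyond the tissue name. Young whole gut against young midgut called 6 of the 9 genes, 1 higher and 5 lower, where 42.2% of all genes were called (19.3% higher, 22.8% lower). Serp (-2.28, adjusted p = 3.92e-06) and verm (-2.87, adjusted p = 3.1e-09) were lower in young whole gut. Cda5 was lower as well (-0.67, adjusted p = 0.00811), a call lost without young midgut replicate 2 (-0.60, adjusted p = 0.0596) or young whole gut replicate 2 (-0.52, adjusted p = 0.0728). Cht4 did not pass (-1.24, adjusted p = 0.215), and passed without old fat body replicate 2 (-1.25, adjusted p = 0.0041).

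Cda9 (2R, 13016337 to 13017839, plus strand) belongs to a branch of short deacetylases without a chitin-binding domain, which in the beetle Tribolium are made in the gut. It was the only one of the 9 genes called higher with age and with Lam RNAi in fat body as in midgut, and it was called higher in old whole gut too. It had 4.60, 3.5 and 4.66 CPM in old fat body, 11.2 and 8.01 CPM in Lam-RNAi fat body and 0.090 and 0.195 CPM (3 and 11 reads) in young fat body. The groups were far apart, with Lam-RNAi fat body highest. The log2 fold change was 4.69 with age (SE 0.36, adjusted p = 0.000206) and 6.13 with Lam RNAi (SE 0.38, adjusted p = 0.000106), and both calls held in each of the 14 alternatives. Old fat body was lower than Lam-RNAi fat body by a log2 fold change of -1.44 (adjusted p = 0.0129), a call lost without old replicate 3 (-1.50, adjusted p = 0.0621), Lam-RNAi replicate 1 (-1.12, adjusted p = 0.163) or Lam-RNAi replicate 2 (-1.67, adjusted p = 0.0666).

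In midgut Cda9 had 40.1 and 43.4 CPM in old libraries, 27.7 and 18.2 CPM in Lam-RNAi libraries and 12.1 and 9.42 CPM in young libraries. The 3 groups followed each other without overlap. It rose by 1.90 with age (SE 0.28, adjusted p = 0.00464) and by 0.94 with Lam RNAi (SE 0.28, adjusted p = 0.0465). The second call was lost without young replicate 1 (1.19, adjusted p = 0.0528) or young replicate 2 (0.71, adjusted p = 0.16), and kept at 0.62 without Lam-RNAi replicate 1 (adjusted p = 0.0229). Old midgut was above Lam-RNAi midgut by 0.97 (adjusted p = 0.0435), which did not pass without old replicate 1 (1.06, adjusted p = 0.0503) or old replicate 2 (0.87, adjusted p = 0.125). In whole gut Cda9 had 62.6 and 64.0 CPM in old libraries, against 31.5 and 35.5 CPM in young libraries, and rose by 0.42 (SE 0.08, adjusted p = 0.000966). The age effect in fat body minus that in midgut was 2.73 (adjusted p = 0.000632), and the age effect in whole gut minus that in midgut was -1.46 (adjusted p = 0.00314).

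Some hindgut markers rose in the old and Lam-RNAi libraries of fat body and midgut, where Cda9 rose against young libraries. The hindgut transcription factor gene byn had 1.40, 6.59 and 3.78 CPM in old fat body, 3.58 and 2.47 CPM in Lam-RNAi fat body and 0.030 and 0.053 CPM in young fat body. In midgut byn averaged 13.4 CPM in old, 16.3 CPM in Lam-RNAi and 5.61 CPM in young libraries. Of the 3 hindgut markers, byn and otp rose with age and with Lam RNAi in both tissues, and otp was at 0 in both young fat body libraries. The other marker, Dr, did not pass in fat body and fell in both midgut comparisons. The summed list was 32.6 to 39.1 CPM in old, 23.8 and 24.8 CPM in Lam-RNAi and 19.7 and 20.3 CPM in young fat body, most of it Dr. Within old fat body byn was lowest in replicate 1 and Cda9 in replicate 2. Cda9 was called in old against young whole gut, old against Lam-RNAi midgut and old against Lam-RNAi fat body. In these comparisons 0 of the 3 hindgut markers passed. The part of hindgut tissue in the Cda9 result was not tested.

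Cht2 (3L, 1752545 to 1755663, minus strand), a chitinase that takes part in building the larval cuticle, varied least. It had 13.3, 11.7 and 12.0 CPM in old fat body, 14.0 and 16.5 CPM in Lam-RNAi fat body and 15.2 and 14.7 CPM in young fat body. The fall with age of 0.37 (SE 0.10, adjusted p = 0.0332) was called, but not without young replicate 1 (-0.34, adjusted p = 0.157), young replicate 2 (-0.39, adjusted p = 0.124), old replicate 3 (-0.34, adjusted p = 0.112) or Lam-RNAi replicate 1 (-0.35, adjusted p = 0.0512). The difference with Lam RNAi was 0.20 (interval -0.07 to 0.47, adjusted p = 0.208). Old fat body was below Lam-RNAi fat body (-0.57, adjusted p = 0.0163), a call lost without old replicate 3 (-0.54, adjusted p = 0.0847), Lam-RNAi replicate 1 (-0.63, adjusted p = 0.0709) or Lam-RNAi replicate 2 (-0.46, adjusted p = 0.156), or with total counts alone (-0.31, adjusted p = 0.0773).

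In midgut Cht2 had 8.28 and 7.75 CPM in old, 12.2 and 13.6 CPM in Lam-RNAi and 10.4 and 11.0 CPM in young libraries. It fell by 0.48 with age (SE 0.10, adjusted p = 0.00126, and 0.115 in the fit of all libraries) and differed by 0.12 with Lam RNAi (interval -0.08 to 0.33, adjusted p = 0.28). Old midgut was also below Lam-RNAi midgut (-0.60, adjusted p = 0.000533). Whole gut went the other way: Cht2 had 15.7 and 14.9 CPM in old libraries, against 7.06 and 3.45 CPM in young ones, and rose by 1.04 (SE 0.25, adjusted p = 0.00539). The young libraries lay apart, and the rise was 1.66 without young replicate 1 (adjusted p = 3.53e-20) and 0.61 without young replicate 2 (adjusted p = 0.000114). The 2 age effects differed by 1.53 (whole gut minus midgut, adjusted p = 0.00246). Young whole gut was below young midgut (-0.76, adjusted p = 0.0156), a call lost without young midgut replicate 1 (-0.74, adjusted p = 0.064), and the value was -1.40 without young whole gut replicate 1 and -0.36 without young whole gut replicate 2.

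Cht8 (2R, 16949150 to 16950717, plus strand), Cht4 (2R, 16952884 to 16954592, minus strand) and Cht9 (2R, 16955494 to 16956813, minus strand) lie with Cht12 within 7.7 kilobases that hold no other entry. Cht8 overlaps Cht12 by 36 bases and the strand setting of the counting is not given, so its value carries that uncertainty, but Cht12 itself had at most 1.94 CPM in any library. Together the 3 genes made up 324 and 321 CPM in old midgut, 363 and 374 CPM in Lam-RNAi midgut and 718 and 560.5 CPM in young midgut. In whole gut they made up 555 and 568 CPM in old libraries and 442 and 441 CPM in young ones. On this scale of total counts the sum was lower in old than in young midgut and higher in old than in young whole gut, and the 3 genes took unequal parts in it.

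Cht9 was the most abundant of the 3 per kilobase in young midgut. It had 147 and 158 CPM in old midgut, 142 and 141 CPM in Lam-RNAi midgut and 428 and 322 CPM in young midgut. It fell by 1.36 with age (SE 0.17, adjusted p = 0.00062) and by 1.56 with Lam RNAi (SE 0.17, adjusted p = 0.000298). Between old and Lam-RNAi midgut it differed by 0.20 (interval -0.21 to 0.61, adjusted p = 0.412), and it passed there without young replicate 1 (adjusted p = 0.0465) or young replicate 2 (adjusted p = 0.0485). In whole gut Cht9 had 216 and 221 CPM in old libraries, against 269 and 271 CPM in young libraries, and fell by 0.80 (SE 0.05, adjusted p = 2.83e-08).

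Cht4 moved with age in opposite directions in the midgut and whole gut libraries. In midgut it had 74.8 and 60.0 CPM in old libraries, 107 and 111 CPM in Lam-RNAi libraries and 140.3 and 101 CPM in young libraries. The fall with age of 0.91 (SE 0.21, adjusted p = 0.0181) was -0.58 without young replicate 1 (adjusted p = 0.000271), and was lost without old replicate 2 (-0.79, adjusted p = 0.0686), with no filter on low counts (adjusted p = 0.0727) and in the fit of all libraries (adjusted p = 0.391). The difference with Lam RNAi was -0.30 (interval -0.85 to 0.24, adjusted p = 0.282), and it was 0.03 without young replicate 1 and -0.57 (adjusted p = 0.000275) without young replicate 2. In whole gut Cht4 had 187 and 189 CPM in old libraries, against 40.6 and 45.6 CPM in young libraries, and rose by 1.63 (SE 0.07, adjusted p = 4.65e-10). The age effect in whole gut minus that in midgut was 2.56 (interval 0.22 to 4.90) and did not pass in the fit of all libraries (adjusted p = 0.0944), where the unequal old fat body libraries enter the spread of this gene. It passed without old fat body replicate 1 (2.55, adjusted p = 0.0309) or old fat body replicate 2 (2.55, adjusted p = 0.000492).

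Cht8 changed less in the gut. It had 102 and 102 CPM in old midgut, 114 and 122 CPM in Lam-RNAi midgut and 151 and 138 CPM in young midgut, and fell by 0.56 with age (SE 0.08, adjusted p = 0.000148) and by 0.44 with Lam RNAi (SE 0.08, adjusted p = 0.000791), the second being -0.29 with total counts alone. In whole gut it had 151 and 157 CPM in old libraries, against 132 and 124 CPM in young libraries. With TMM factors the whole gut change was -0.23 (SE 0.06, adjusted p = 0.00683), and scaled by total counts alone it was 0.27 (adjusted p = 0.00116), so its direction depends on the scaling. That scaling moved the median of all genes up by 0.50 in whole gut, and with it the fall of Cht9 was -0.31 (adjusted p = 0.000148) and the rise of Cda9 was 0.92 (adjusted p = 1.03e-06). The call with TMM factors was also lost without old replicate 1 (-0.20, adjusted p = 0.0788). Old against young whole gut called 5 of the 8 genes tested, 3 higher (Cda9, Cht2 and Cht4) and 2 lower (Cht8 and Cht9), where 43.6% of all genes were called (20.1% higher, 23.4% lower). In the fit of all 17 libraries, where the biological coefficient of variation was 13.9%, against 7.3% in whole gut alone, Cht2 passed as well, and Cda9 (0.44, adjusted p = 0.133), Cht4 (1.65, adjusted p = 0.12), Cht8 (-0.21, adjusted p = 0.236) and Cht9 (-0.79, adjusted p = 0.14) did not pass.

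As shares of their summed reads, which no scaling affects, the 3 chitinases were re-proportioned. Cht4 made up 33.8% and 33.4% in old whole gut, against 9.20% and 10.3% in young whole gut, and Cht9 made up 39.0% and 39.0% in old whole gut, against 61.0% and 61.5% in young whole gut. The groups lay far apart and their replicates close together. In midgut the Cht9 share was 45.3% and 49.4% in old, 39.2% and 37.7% in Lam-RNAi and 59.5% and 57.4% in young libraries. The Cht4 share was 23.1% and 18.7% in old, 29.5% and 29.6% in Lam-RNAi and 19.5% and 18% in young libraries. Old and young midgut were close in that share, and Lam-RNAi midgut was above both. Old against Lam-RNAi midgut called 3 of the 9 genes (Cda9 higher, verm and Cht2 lower), where 36% of all genes were called (17.1% higher, 18.9% lower). Without young replicate 1 or 2 it called 5 of the 9, as Cht4 (-0.61 in both, adjusted p = 0.000106 and 0.000114) and Cht9 passed too. The log2 fold changes of Cht4 and Cht9 were those of the main fit, so the estimate of the spread made the difference. The share of all genes called in these fits is not given here. The verm call was lost without old replicate 2 (-0.19, adjusted p = 0.502) or Lam-RNAi replicate 2 (-0.25, adjusted p = 0.317).

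In fat body the gut chitinases were low, and 2 of them varied most within 1 group. Cht4 had 21.5, 0.662 and 9.01 CPM in old fat body, 0.107 and 0.175 CPM in Lam-RNAi fat body and 1.17 and 0.621 CPM in young fat body. Old replicates 1 and 3 were above all other fat body libraries and old replicate 2 lay within the young range. Cht9 had 2.16, 0.238 and 0.95 CPM in old fat body, 0.193 and 0.131 CPM in Lam-RNAi fat body and 0.180 and 0.408 CPM in young fat body, with the same order of the old libraries. Neither passed between old and young fat body (Cht4 3.47, interval 0.43 to 6.50, adjusted p = 0.0706; Cht9 1.78, interval -0.34 to 3.90, adjusted p = 0.156). Cht4 did pass with DESeq2 (3.46, adjusted p = 0.019) and in the fit of all 17 libraries (3.48, adjusted p = 0.0134). Both passed without old replicate 2 (Cht4 4.04, adjusted p = 0.000929; Cht9 2.22, adjusted p = 0.0177). Without replicates 1 and 3 the differences were -0.45 and -0.40, but those libraries were picked for their high values, so the direction of that step is fixed by the choice, and only 1 old library is left.

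The list of 5 midgut markers did not share this order in sum, with 74.8, 110 and 86.4 CPM in old replicates 1, 2 and 3. Most of the sum was the amylase gene Amy-p (36.9, 82.4 and 54.5 CPM), highest in replicate 2, while the marker mex1 had 7.32, 1.77 and 3.67 CPM and was lowest there. Of the other markers betaTry (23.4, 19.4 and 21.0 CPM) and GATAe (3.74, 2.97 and 4.48 CPM) were lowest in replicate 2 as well, by less, and LManVI was lowest in replicate 3. The mucin-like gene Mur29B (50.5, 2.49 and 25.0 CPM) and the trypsin gene kappaTry (2.27, 0.265 and 1.35 CPM) had the order of Cht4 and Cht9, but they are named below as the genes most like these 2 over group means that include old fat body, so they were picked for likeness and lend the order no support. The list summed to 131 and 131 CPM in Lam-RNAi and 24.5 and 24.6 CPM in young fat body, and 3 of the 5 markers rose with age and 0 fell. The part of midgut tissue in the Cht4 and Cht9 levels was not tested.

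Cht8 behaved otherwise in fat body. It had 4.32, 3.23 and 3.07 CPM in old fat body, 0.322 and 0.526 CPM in Lam-RNAi fat body and 3.92 and 3.64 CPM in young fat body. The Lam-RNAi libraries, with 15 and 36 reads, lay below all 5 others. Cht8 fell by 2.96 with Lam RNAi (SE 0.31, adjusted p = 0.000782), a call kept in each of the 14 alternatives, and did not pass with age (-0.18, interval -0.78 to 0.42, adjusted p = 0.599). Old fat body was above Lam-RNAi fat body by 2.78 (adjusted p = 0.00307). Of the 5 midgut markers 4 rose and 1 fell in Lam-RNAi against young fat body. Of the 3 markers of Malpighian tubule, the fly's excretory organ, 2 were lower in Lam-RNAi than in young fat body and 2 higher in old than in Lam-RNAi fat body. The tubule markers summed to 78.2 to 100.2 CPM in old, 69.5 and 48.5 CPM in Lam-RNAi and 108 and 107 CPM in young fat body. The part of midgut or tubule tissue in the Cht8 level was not tested. Cht4 had 5 and 12 reads in Lam-RNAi fat body and differed from young fat body by -2.39 (interval -6.21 to 1.42, adjusted p = 0.283), and it passed without old replicate 2 (-2.36, adjusted p = 0.0341). Between old and Lam-RNAi fat body Cht4 was called (5.86, adjusted p = 0.0483), but in none of the fits without young replicate 1 (adjusted p = 0.0948), young replicate 2 (0.0958), old replicate 1 (0.0847), old replicate 3 (0.122), Lam-RNAi replicate 1 (0.279) or Lam-RNAi replicate 2 (0.267). Cht9 did not pass there (2.53, adjusted p = 0.12), and passed without old replicate 2 (2.99, adjusted p = 0.0111), with DESeq2 (2.52, adjusted p = 0.034) and in the fit of all 17 libraries (2.56, adjusted p = 0.0245).

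**Figure D4:**
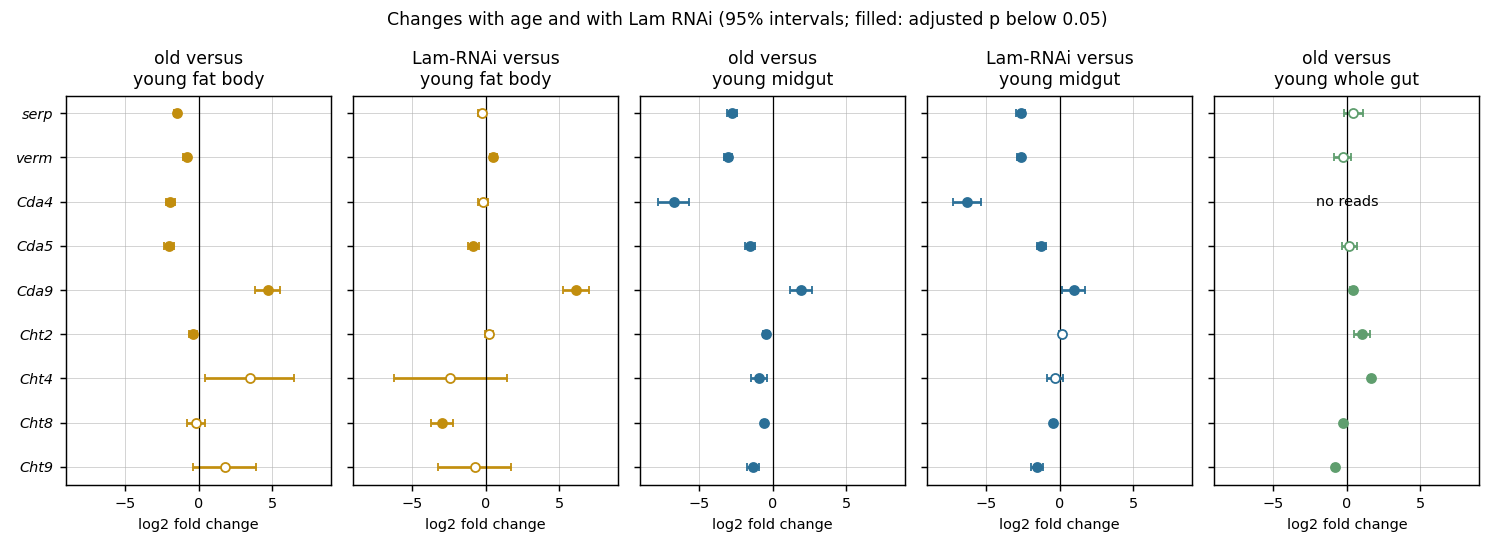
Log2 fold changes of the 9 genes (rows) in 5 comparisons with young libraries (panels), from edgeR with TMM factors. Bars are 95% intervals, and filled points have an adjusted p below 0.05. Cda9 is the only gene on the right of 0 with a filled point in all 5 panels. In whole gut the point of Cht8 lies left of 0 and would lie right of it with total counts alone, as would that of verm, which is not called.

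The effects of age and of Lam RNAi were then compared between fat body and midgut in the fit of all libraries. The age effects differed for 6 of the 9 genes, all 6 higher in fat body, where 44.3% of all genes were called (23.8% higher, 20.4% lower). The difference was 1.22 for serp (adjusted p = 0.00307), 2.16 for verm (adjusted p = 2.5e-07) and 4.78 for Cda4 (adjusted p = 1.46e-05), so these deacetylases fell more in midgut. Cht4 (4.39) and Cht9 (3.07) also passed, but Cht4 not without young fat body replicate 2 (3.93, adjusted p = 0.0735). Left with old fat body replicate 2 as the 1 old library of that tissue, a choice made from the values, the differences were 0.49 for Cht4 and 0.84 for Cht9. For Cda5 it was -0.52 (interval -1.0 to -0.04) and did not pass (adjusted p = 0.0758), and it passed without old fat body replicate 2 (-0.64, adjusted p = 0.0143). The Lam-RNAi against young differences, of which the midgut one came with no detected fall of Lam, were unequal between the tissues for 5 genes, 4 higher and 1 lower in fat body, where 46.7% of all genes were called (24.1% higher, 22.5% lower). They differed by 2.34 for serp, 3.13 for verm, 6.06 for Cda4 and 5.11 for Cda9, and by -2.53 for Cht8, with adjusted p from 8.41e-09 to 2.14e-05, and Cda5 passed as well without old fat body replicate 1 (0.44, adjusted p = 0.049). These differences use the young midgut libraries, with the marker levels given above.

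The other genes of chitin metabolism, 22 loci for precursors, synthases, assembly, other chitinases and hexosaminidases, were counted alongside. In old against young fat body 3 rose and 10 fell of 21 tested, where 19.1% of all genes rose and 19% fell, with a median log2 fold change of -0.29, against 0.02 over all genes. The rises and falls numbered 1 and 7 without young replicate 1, 0 and 6 without young replicate 2, and 5 and 10 without old replicate 1. For fits with a library left out, here and below, shares of all genes called are not given. A change particular to these genes cannot be read from such counts. Those with the smallest p were the chitinase genes Cht7 (-1.89) and Cht6 (-1.35), the hexosaminidase gene fdl (-1.19) and obst-B (-1.25), which encodes a chitin-binding cuticle protein. With Lam RNAi 8 rose and 1 fell of 21, where 18.5% of all genes rose and 17.1% fell, with a median of 0.36, against -0.01 over all genes. Here obst-A (0.91), whose product organises cuticle chitin, the chitinase gene Cht3 (2.21) and the hexosaminidase gene Hexo1 (0.68) rose, while fdl fell by 0.83. The rises numbered 5 without young replicate 1, and the falls 2 without old replicate 2.

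Set directly against Lam-RNAi fat body, old fat body had 0 higher and 12 lower of 21, where 5.65% of all genes were higher and 9.09% lower (median -0.58, against 0.01 over all genes), led by obst-A (-1.73), Cht6 (-1.70), Cht7 (-1.69) and the tracheal chitin-binding gene Gasp (-1.51). That count was 7 with scaling by total counts alone, 8 when either young library was dropped, 15 without old replicate 1 and 6 without each of old replicate 3, Lam-RNAi replicate 1 and Lam-RNAi replicate 2. With total counts alone fewer of all genes were called lower too. The fits with a library left out again lack the share of all genes. In midgut 0 rose and 17 fell of 22 with age, where 25% of all genes rose and 28.7% fell (median -0.58, against 0.01 over all genes). With Lam RNAi 1 rose and 13 fell, where 25.5% rose and 29.9% fell (median -0.53, against -0.01). The smallest p belonged to Hexo2 (-2.63 with age and -2.25 with Lam RNAi), Cht6 (-3.19 and -3.67) and obst-A (-4.97 and -4.89), with Cht7 (-2.83) for age and Cht5 (-3.61), a moulting chitinase gene, for Lam RNAi. The rise with Lam RNAi was CS-2 (0.66), and the rises numbered 2 without Lam-RNAi replicate 1 and, with age, 1 without young replicate 1. These comparisons again rest on the young midgut libraries. Old against Lam-RNAi midgut had 0 higher and 8 lower, where 17.1% of all genes were higher and 18.9% lower (median -0.21, against -0.01), led by Gfat1 (-0.51), the first enzyme of precursor synthesis, Cht7 (-0.95), nst (-0.39) and mmy (-0.32). It had 5 lower without old replicate 2 and 4 without Lam-RNAi replicate 2. In whole gut 3 rose and 6 fell of 21 with age, where 20.1% of all genes rose and 23.4% fell (median -0.21, against 0.02). Scaled by total counts alone, 10 rose and 1 fell, but most of all genes were then called higher too, and their median was 0.52. There the call of Gfat2 (-0.64) was kept, Hexo1 (-0.60) was at -0.11 and no longer called (adjusted p = 0.0868), and CS-2 (-0.32), the gut chitin synthase gene, and Gfat1 (-0.28) turned to 0.17 and 0.22. The whole gut rises numbered 1 without old replicate 2.

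Finally, the genes whose levels followed each member most closely were found. The measure was the root mean square difference in log2 CPM over the 8 group means after centring each gene, among 5079 tested loci that carry a gene symbol proper and no CG or CR number, so smaller is closer. The groups share libraries and depth, and the values are a description. The genes were picked for likeness over these same means, so an order shared with a member follows from the choice and lends no support. Closest to verm was kkv, the chitin synthase gene of epidermis and trachea (0.28 log2 units), then the lipocalin gene Karl (0.30) and the monoamine transporter gene Vmat (0.40). Kkv averaged 11.9 CPM in old, 31.1 CPM in Lam-RNAi and 16.7 CPM in young fat body, and 0.725, 0.898 and 4.10 CPM in the same groups of midgut. Like verm it was highest with Lam RNAi in fat body and highest in young flies in midgut. Closest to serp were GNBP3 (0.28), which encodes a sensor of fungal glucans, the oxidase gene Duox (0.30) and Invadolysin (0.37), a metalloprotease gene. Near Cda4 were the cuticle protein genes Cpr97Ea (0.49), Cpr62Bb (0.54) and Cpr49Ah (0.62). Near Cda5 were the chloride channel gene pHCl (0.28), gk (0.32) and uif (0.35), one of the tracheal markers.

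Cda9 lay closest to byn (0.56), the hindgut factor gene described above, then the peritrophic matrix gene Peritrophin-15b (0.71) and the neuropeptide receptor gene NepYr (0.88), at larger distances than for serp or verm. Peritrophin-15b averaged 3.65 CPM in old, 9.34 CPM in Lam-RNAi and 0.009 CPM in young fat body. Cht4 lay closest to Mur29B (0.47), the caspase gene decay (0.68) and GATAe (0.77), the endodermal GATA factor gene and a midgut marker here. Like Cht4, Mur29B was far higher in old whole gut (1056 and 1091 CPM) than in young whole gut (174 and 185 CPM). Cht8 lay closest to the homeobox gene Ptx1 (0.50), the transporter gene Oatp33Eb (0.54) and the Toll-like receptor gene Tehao (0.54). Cht9 lay closest to kappaTry (0.53), the homeobox gene vnd (0.58) and Ast-C (0.63), a gut peptide hormone gene. For Cht2 the 8 group means spanned 1.15 log2 units, below the 2 required, and no gene is named.

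**Figure D5:**
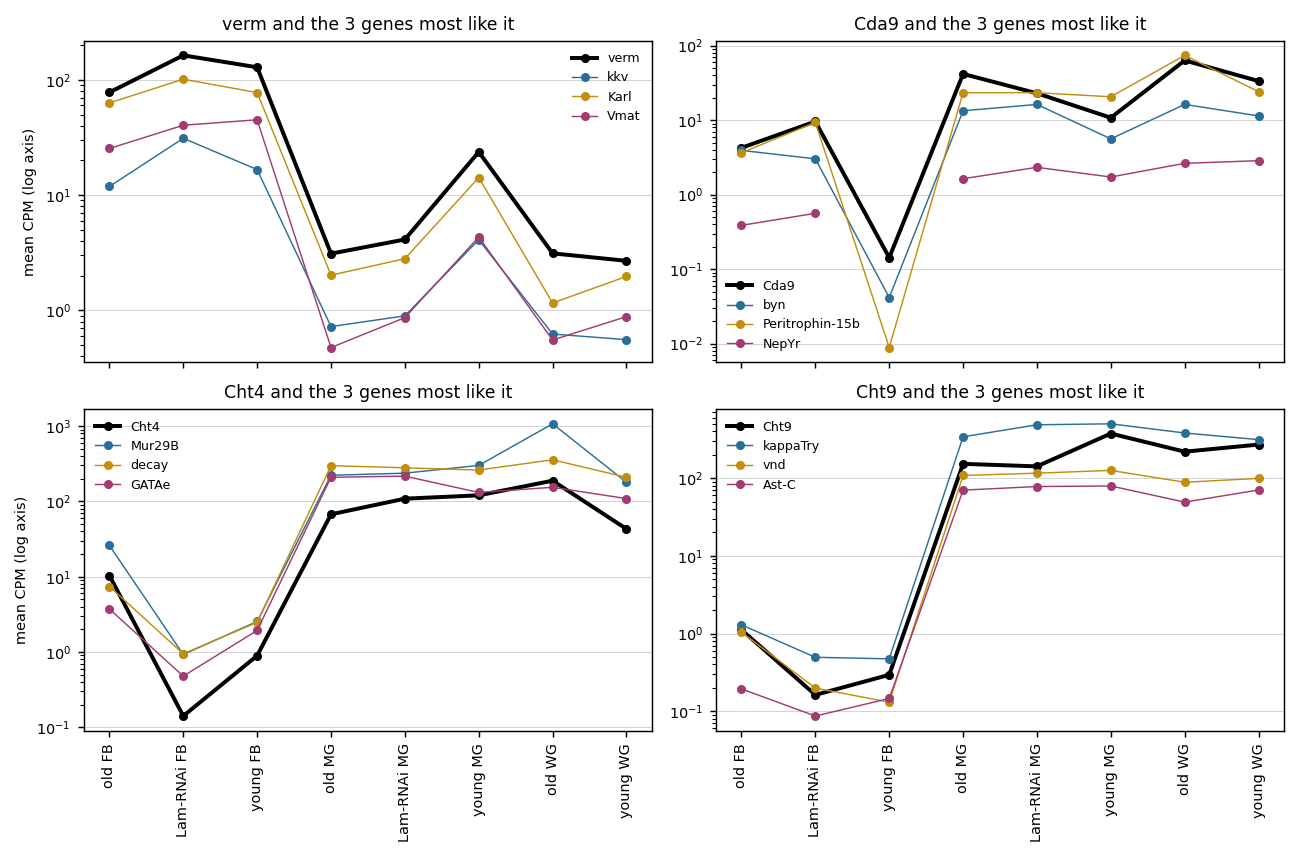
Mean CPM per group (log axis) of verm, Cda9, Cht4 and Cht9 (thick lines) and of the 3 genes most like each (thin lines), with lines joining the groups for reading. Means are over 2 libraries, or 3 in old fat body. NepYr had no read in young fat body and has no point there. The thin lines were picked for likeness over these means. Kkv, so picked, follows verm through the 3 fat body and 3 midgut groups. Cht4 and Mur29B are highest in old whole gut, and in old fat body, where Cht4 is below every gut group, both means rest on replicates 1 and 3.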

How the data were processed

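Poly-A RNA was sequenced in 17 libraries, with RNA purified by PicoPure and libraries made by TruSeq, per the labels' protocols. The authors deposited raw counts of reads per gene, 1 table per library, and CASAVA 1.8, TopHat2 and edgeR are named in the submitters' processing notes. The counter, its strand setting and the genome build are not given in the sources used here. Each table held 15080 entries, which were merged to 14095 loci, of which 13661 had a read. Members were matched by symbol, and exon lengths came from the BDGP6.54 annotation (release 6) by gene name. No gene sequence was used here.

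The test was the robust quasi-likelihood test of edgeR 4.0.16 (R 4.3.3), after filterByExpr and with TMM factors and Benjamini-Hochberg adjustment over all genes tested. Fat body (10866 genes), midgut (10220) and whole gut (9773) were fitted apart, each with all of its groups, and comparisons between tissues used a fit of all 17 libraries (11128). The procedure was run on simulated counts with known changes, drawn with the fitted spread of each gene. That run did not cover unequal replicates or differences in the make-up of the tissue. Alternatives were DESeq2 1.42.0, its size factors in edgeR, scaling by total counts alone, no filter, a replicate block, each library left out, and all libraries in the fit. Leaving out old fat body replicates 1 and 3 was added after seeing the data. The 9 members, the pathway list and the marker lists (fat body, midgut, trachea, oenocytes, hemocytes, muscle, hindgut, epidermis, Malpighian tubule and neurons) were chosen with earlier results of these data known. Of 66 list entries 2 had no match (Cda3 and Desat-F), 11 were matched by synonym, and Cht10 shares the entry Cht3. All members are named, and of the pathway list the 4 with the smallest p in each comparison. For each member whose group means span at least 2 log2 units, the 3 most like genes are named, from log2 CPM with a prior count of 2.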

Additional observations from a re-analysis of the deposited data

Results flagged for a closer look

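For 16 pairs of a gene and an effect, the difference between the effects in 2 tissues passed in the fit of all 17 libraries (edgeR, adjusted p below 0.05, on the log2 scale). In the order given below, 6 of 9, 5 of 9 and 5 of 8 genes tested passed, where 44.3%, 46.7% and 30% of all genes passed. The age effect in fat body minus that in midgut was 1.22 for serp, 2.16 for verm, 4.78 for Cda4, 2.73 for Cda9, 4.39 for Cht4 and 3.07 for Cht9. The Lam RNAi effect in fat body minus that in midgut was 2.34 for serp, 3.13 for verm, 6.06 for Cda4, 5.11 for Cda9 and -2.53 for Cht8. The age effect in whole gut minus that in midgut was 3.19 for serp, 2.74 for verm, 1.71 for Cda5, -1.46 for Cda9 and 1.53 for Cht2. Midgut held only 2 (old) and 3 (Lam-RNAi) reads of Cda4, so the size of its difference depends on the prior count, while the falls in midgut given as ratios of reads do not. All of these differences contain the young midgut libraries, in which fat body, oenocyte, hemocyte and muscle markers were also higher, and the part of those tissues was not tested.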

How the results depend on the processing

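Of 1759 member values under the alternatives, 1650 kept their direction and their side of the threshold, 63 lost a call, 30 gained one and 16 changed sign. Of 199 counts of called members, 189 stayed within 1.5 times. Dropping replicates 1 and 3 of old fat body was chosen after seeing their high Cht4 and Cht9 values, which fixes the direction, and leaves 1 old library, assumed to vary like the others. Old against young fat body was then -0.45 for Cht4 and -0.40 for Cht9. With total counts alone, whole gut age changes were 0.21 for verm and 0.27 for Cht8, young whole gut against young midgut was -0.18 for Cht8, and the Lam RNAi effect in fat body minus that in midgut was -0.24 for Cht2. That scaling moved the median of all genes by 0.50 in whole gut, -0.17 in Lam-RNAi against young fat body, 0.15 in Lam-RNAi against young midgut, 0.46 in young fat body against young midgut, -0.26 in young whole gut against young midgut, -0.27 in the Lam-RNAi difference between tissues and 0.43 in the age difference between whole gut and midgut. It moved it by 0.26 between old and Lam-RNAi fat body, where all genes split 2576 higher and 578 lower, against 614 and 988 with TMM factors. The whole gut split was 6095 and 838, against 1969 and 2288. It was 3471 and 2183 in Lam-RNAi against young midgut (2603 and 3058 with TMM factors), 864 and 2247 between old and Lam-RNAi midgut (1743 and 1935), and 1553 and 2894 in Lam-RNAi against young fat body (2015 and 1860). It was 5621 and 2634 in young fat body against young midgut (3815 and 3896), 1224 and 4306 in young whole gut against young midgut (2150 and 2542), 2007 and 3727 for the Lam-RNAi difference between tissues (2687 and 2508) and 4176 and 533 for the age difference between whole gut and midgut (1956 and 1387). The fit of all 17 libraries called 1 member between old and Lam-RNAi midgut (3 in the midgut fit) and 1 in whole gut (5 in its own fit). The replicate block called 2 members between old and Lam-RNAi fat body, against 8 without it. Over all genes it called 66 there, against 1602. Libraries with the same number did not deviate together (correlations -0.156 to 0.014), so the numbers were not taken as pairs. With each library left out in turn, called members numbered 2 to 6 in Lam-RNAi against young fat body, 4 to 9 between old and Lam-RNAi fat body and 1 to 5 between old and Lam-RNAi midgut. For the fits with a library left out and the fit of all 17 libraries, shares of all genes called are not given here. Counts of members and of other chitin genes in those fits lack that comparison. Sign changes came with these ranges: Cht9 in Lam-RNAi against young fat body -1.17 to 0.005, Cht4 in Lam-RNAi against young midgut -0.57 to 0.029, serp and Cda4 between old and Lam-RNAi midgut -0.2 to 0.01 and -0.91 to 0.24, Cda5 in whole gut -0.018 to 0.37, Cht8 and Cht9 in young whole gut against young midgut -0.061 to 0.21 and -0.49 to 0.076, and Cht2 in the Lam RNAi difference between tissues -0.074 to 0.14. The cause was not tested. Depth limits Cda4 in old and Lam-RNAi midgut and in whole gut, and Cht4 and Cht9 in fat body, where libraries held as few as 0 to 9 reads.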
